A study of Homo sapiens with 9 samples.

Results

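Genes of cholesterol synthesis and its sterol control were followed in MDA-MB-231, a human triple-negative breast cancer cell line, after 2 siRNAs against the long noncoding RNA MILIP. The genes are 31 listed by name from the pathway and its regulators, out of 60612 genes in the table; the list was drawn up by name, with earlier results of these data known. They comprise 19 enzymes, 5 genes that control the SREBP transcription factors, 2 that handle sterol inside the cell and 5 of the arm governed by LXR. The enzymes lie on the route from acetyl-CoA to cholesterol, except GGPS1, which serves a side branch and is counted with them. All groups are the same line, transfected with a Lipofectamine reagent and harvested after 48 hours: 3 libraries received a negative control siRNA, 3 received MILIP siRNA1 and 3 received MILIP siRNA2. The protocol text in the labels calls the siRNAs by another name, PLANE; the name MILIP is that of the series title and the treatment label.

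Cells make cholesterol in the endoplasmic reticulum and cytosol by a chain of enzymes that first builds mevalonate and isoprenoid units, then joins them into squalene, closes the first sterol ring system and trims lanosterol down to cholesterol. When sterol in the endoplasmic reticulum runs low, SCAP escorts the SREBP proteins to the Golgi, where they are cut to release transcription factors that switch on genes of this chain. When sterol is plentiful, INSIG proteins hold SCAP back, and oxidised sterols activate the LXR receptors, which switch on genes for sterol export. INSIG1 is itself a target of SREBP, and so is SREBF2.

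Sequences before a RefSeq transcription start are shown for 5 of the genes, picked by their values with siRNA2 or by their role. HMGCS1, MSMO1 and INSIG1 had the largest rises among the 31 genes with siRNA2. SREBF2 encodes the factor itself, and PMVK was the single enzyme that went the other way. Whether these sequences bear on the changes was not tested. Each run is the 250 bases before a transcription start in RefSeq (GRCh38.p14), read 5′ to 3′ on the gene's strand. The deposited gene spans of HMGCS1, MSMO1, INSIG1 and SREBF2 begin inside these runs, so part of each of those runs lies within the span. Capitals mark the CCAAT box, which NF-Y binds, on either strand (CCAAT or ATTGG), and in SREBF2 also the sterol regulatory element TCACNCCAC. The HMGCS1 run is chr5:43313413-43313662 on the minus strand, MSMO1 is chr4:165327419-165327668 on the plus strand, INSIG1 is chr7:155297628-155297877 on the plus strand, SREBF2 is chr22:41832855-41833104 on the plus strand and PMVK is chr1:154936720-154936969 on the minus strand.
HMGCS1: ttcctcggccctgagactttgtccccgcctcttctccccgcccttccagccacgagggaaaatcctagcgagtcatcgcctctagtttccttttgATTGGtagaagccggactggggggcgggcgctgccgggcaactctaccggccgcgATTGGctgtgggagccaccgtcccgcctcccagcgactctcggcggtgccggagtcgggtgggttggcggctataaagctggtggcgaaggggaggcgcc
MSMO1: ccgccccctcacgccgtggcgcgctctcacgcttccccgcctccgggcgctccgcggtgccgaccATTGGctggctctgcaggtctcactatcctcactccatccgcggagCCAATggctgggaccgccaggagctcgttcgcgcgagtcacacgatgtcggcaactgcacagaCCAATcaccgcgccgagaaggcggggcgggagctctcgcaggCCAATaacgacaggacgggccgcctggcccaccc
INSIG1: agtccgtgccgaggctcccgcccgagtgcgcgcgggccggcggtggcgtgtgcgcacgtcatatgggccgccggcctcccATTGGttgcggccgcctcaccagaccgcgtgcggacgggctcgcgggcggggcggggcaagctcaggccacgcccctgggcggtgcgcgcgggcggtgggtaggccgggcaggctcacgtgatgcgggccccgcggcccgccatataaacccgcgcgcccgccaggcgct
SREBF2: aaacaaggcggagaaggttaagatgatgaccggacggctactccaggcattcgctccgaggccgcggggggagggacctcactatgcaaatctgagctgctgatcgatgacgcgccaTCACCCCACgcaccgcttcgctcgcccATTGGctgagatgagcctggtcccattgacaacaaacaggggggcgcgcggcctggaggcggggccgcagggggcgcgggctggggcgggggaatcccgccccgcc
PMVK: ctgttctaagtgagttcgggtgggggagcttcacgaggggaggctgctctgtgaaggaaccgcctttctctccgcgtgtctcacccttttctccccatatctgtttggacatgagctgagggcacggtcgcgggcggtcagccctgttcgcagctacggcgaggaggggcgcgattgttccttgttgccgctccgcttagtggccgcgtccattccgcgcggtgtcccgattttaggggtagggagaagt
The HMGCS1 run holds 2 CCAAT boxes, starting at -155 and -100 from the start site, and the MSMO1 run holds 4, at -185, -139, -76 and -34. INSIG1 has 1 at -170, and SREBF2 has 1 at -106, close to its sterol element at -133. The PMVK run holds neither motif. HMGCS1 has a second RefSeq start with no CCAAT box in its window.

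Over the 27 of the 31 genes with a window in the table (250 bases before to 50 after a start, 38 windows), a CCAAT box was found in 20 genes and in 22 windows, or 57.9% of windows, against 34.6% of 35116 windows of all genes. Among the 16 enzymes with a window, 14 held it in at least 1 window. CYP51A1 was the other enzyme beside PMVK without one, and it rose by 1.61 ± 0.10 with siRNA2 on the log2 scale. The 9-letter element TCACNCCAC, searched on both strands, was found in 1 gene, SREBF2, and in 1.13% of all windows. A shorter form, CACCCCA, which lies within the longer one and was tried after that result was seen, occurred in 6 genes (MVK, MVD, EBP, SREBF2, NR1H3 and ABCA1) and in 8.08% of all windows. The E-box CACGTG was present in LSS, SC5D, SCAP, INSIG1 and ABCA1 and in 7.26% of all windows. GGGCGG, the letters bound by Sp1, was in 26 of the 27 genes and in 45% of all windows, or 65.2% of windows of the genes tested here. These are matches of letters in short windows. For 26 of the 38 windows, the last 40 bases were found in a protein-coding GENCODE transcript of the gene. Genes with several windows have more chances of a match, and some windows of a gene overlap, as in SC5D. The shares over all genes are of windows, so the counts of genes have no matching share.

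MILIP, listed in the table as MAFG-DT, was counted 133, 126 and 148 times in the controls. Its counts were 19, 11 and 37 after siRNA1 and 10, 19 and 6 after siRNA2. All libraries of either siRNA lay below all controls, and the log2 fold changes were -2.74 ± 0.26 (SE) and -3.73 ± 0.29, with an exact two-sided permutation p of 0.1 for each, the smallest that 3 libraries against 3 allow. Depth was 15281220 to 19759371 counts per library, and 15345 genes passed the low-count filter. Both siRNAs are compared with the same control libraries. No label states whether replicate libraries are separate cultures. The p-values therefore reflect library-to-library spread that could be technical. Of the markers of the line, VIM stood at 923 ± 42.3 in control on the per-length scale explained below. The control means of the others were 83.1 (CD44), 39.7 (EGFR), 67.5 (KRT8) and 163 (KRT18). With siRNA1 the log2 fold changes were -0.05 (VIM, not called), -0.34 (CD44), -1.10 (EGFR), 1.20 (KRT8) and 0.72 (KRT18). With siRNA2 they were -0.23, 0.17, -0.79, 0.33 and -0.36 in the same order. The hormone receptor genes ESR1 and PGR had 6 to 17 and 0 to 1 counts, and ERBB2 had 892 to 1408 counts. Markers of other cell types were near 0: CD3E and ADIPOQ had 0 counts in all libraries, PTPRC 0 to 1, ALB 0 to 2 and CDH5 0 to 9. Of the leukocyte and endothelial markers, CD68 (5 to 19 counts) and PECAM1 (53 to 165 counts) were higher with siRNA2; the 3 leukocyte markers summed to 0.136 to 0.214 in control, 0.188 to 0.214 with siRNA1 and 0.305 to 0.512 with siRNA2, and the 2 endothelial markers to 0.577 to 0.911, 0.43 to 0.612 and 1.05 to 1.2. Their part in the results was not tested.

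With siRNA2 nearly the whole synthesis chain rose, and with siRNA1 it did not. Among the 30 genes that could be tested, 24 rose and 3 fell with siRNA2 (edgeR's quasi-likelihood test, adjusted p below 0.05), where 27.2% of all tested genes rose and 28.9% fell. The median log2 fold change was 0.533, against -0.011 over all tested genes. With siRNA1, 11 rose and 12 fell, where 25.1% of all tested genes rose and 25.3% fell, and the median was -0.146 against 0.003. In the direct comparison of siRNA2 with siRNA1, 21 genes were higher and 5 lower, where 28.4% of all tested genes were higher and 32.0% lower, with a median of 0.687 against -0.033. Rises of at least 1 on the log2 scale with siRNA2 were called for 11 of the 30 genes and for 6.06% of all tested genes. Together the 31 genes took 0.183% ± 0.00379 of all counts in control, 0.177% ± 0.00153 after siRNA1 and 0.342% ± 0.00643 after siRNA2 (SD, n = 3), and the 19 enzymes took 0.115% ± 0.00416, 0.113% ± 0.001 and 0.236% ± 0.00608. In bulk RNA, fewer cells that express a gene and less RNA per cell cannot be told apart.

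**Figure D1:**
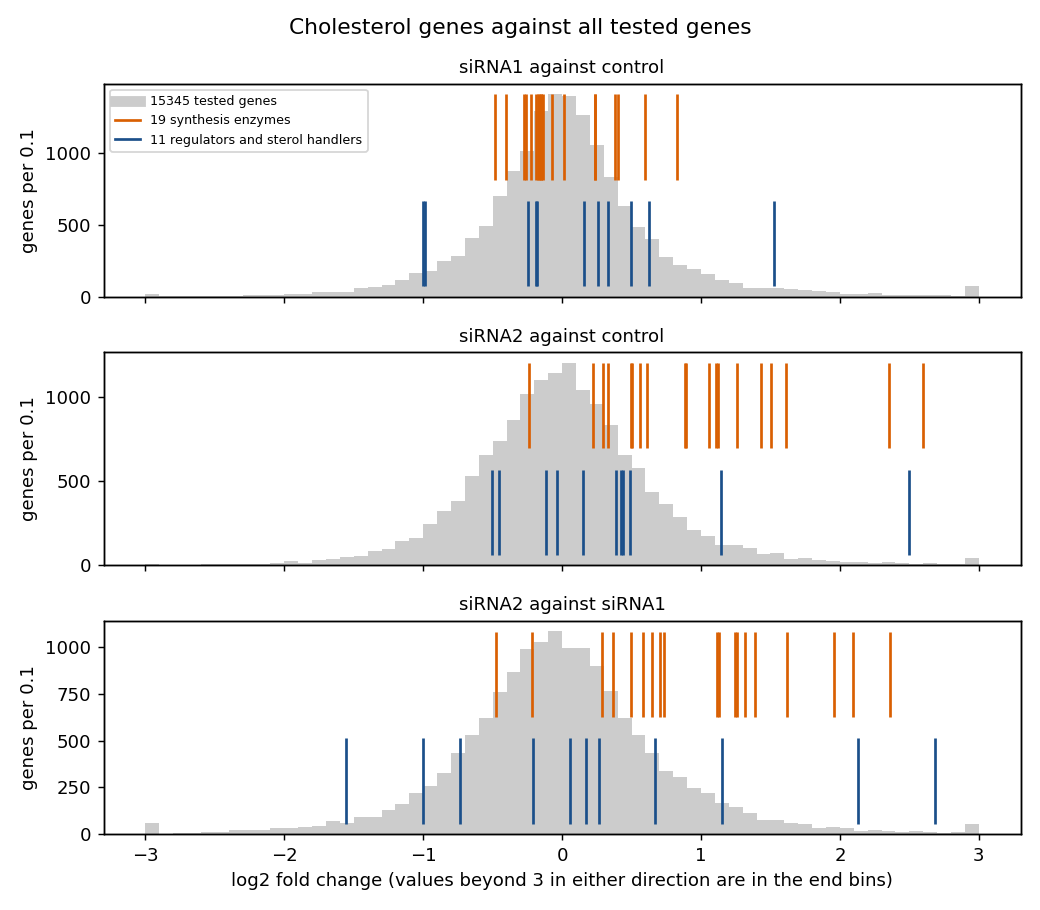
Each panel plots the log2 fold change of one comparison on the horizontal axis (siRNA1 against control, siRNA2 against control, siRNA2 against siRNA1), with all 15345 tested genes as a grey histogram (genes per bin of 0.1) and vertical lines for the 19 enzymes (orange) and the 11 tested regulators and sterol handlers (blue). The enzymes lie around 0 with siRNA1, and with siRNA2 all but PMVK lie to the right of 0.

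Levels below are TMM-scaled FPKM, that is, counts per kilobase of exon and per 1e+06 counts of the scaled library, so that genes can be compared per length. The 3 values of a group are given in the order of the library numbers, which carry no meaning. Fold changes with their standard errors are on the log2 scale and come from the counts. Of all tested genes, 27.2% rose and 28.9% fell with siRNA2, and 25.1% rose and 25.3% fell with siRNA1. Between the siRNAs, 28.4% were higher and 32.0% lower with siRNA2. Libraries of siRNA1 and control did not overlap, in either direction, in 53.8% of all tested genes. The share was 61.8% for siRNA2 and control and 65.5% for the 2 siRNAs. The counts of called genes and the statements on overlap in the steps below are to be read beside these shares.

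The mevalonate steps turn acetyl-CoA into the 5-carbon isoprenoid unit. With siRNA2, 5 of these 6 genes rose and 1 fell, with a median log2 fold change of 0.84, and with siRNA1 3 rose and 2 fell, with a median of 0.048. HMGCS1, which makes HMG-CoA and lies on chromosome 5 at 43287470 to 43313512 (GRCh38), stood at 10.7, 9.29 and 9.54 in control, 11.5, 12.6 and 10.8 with siRNA1 and 61.5, 58.1 and 59.5 with siRNA2. Its 3 groups did not overlap, and the siRNA2 libraries stood far above the rest. It rose 6.06-fold with siRNA2 (log2 2.60 ± 0.07, adjusted p = 2.511e-19), rank 76 of 15345 genes by size of rise, and 1.18-fold with siRNA1 (0.24 ± 0.07, adjusted p = 0.005275).

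MVK, the kinase that phosphorylates mevalonate, had 5.04, 5.31 and 5.19 in control, 6.39, 6.63 and 7.15 with siRNA1 and 14.4, 14.1 and 15.6 with siRNA2, again 3 separate groups. It rose by 0.38 ± 0.07 with siRNA1 and by 1.50 ± 0.07 with siRNA2 on the log2 scale. MVK shares 69 exon bases with MMAB on the opposite strand, a gene of 891 counts on average. PMVK, the next kinase, behaved unlike the others: 37.3, 41.2 and 48.4 in control, 50.3, 46.4 and 52.8 with siRNA1 and 36.5, 36.3 and 34.8 after siRNA2. The control libraries of PMVK spread widely, overlapped those of siRNA1 and lay just above those of siRNA2. It was called higher with siRNA1 (0.24 ± 0.09, adjusted p = 0.0246) and lower with siRNA2 (-0.24 ± 0.09, adjusted p = 0.0228), and the latter call was lost without control library 3 (adjusted p = 0.2065), without siRNA2 library 3 (0.0807) and without the low-count filter (0.0513).

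MVD, the decarboxylase that ends the mevalonate steps, had 11.2, 11.8 and 14.7 in control, 11.2, 9.43 and 10.6 with siRNA1 and 28.0, 26.5 and 27.3 with siRNA2. All siRNA2 libraries exceeded all others, while siRNA1 touched the control range. MVD rose by 1.12 ± 0.08 with siRNA2 and fell by 0.27 with siRNA1 (SE 0.09, adjusted p = 0.01115). ACAT2, the cytosolic thiolase that makes acetoacetyl-CoA, was the most abundant of the enzymes per length, at 67.3, 66.3 and 73.2 in control, 62.0, 60.6 and 61.0 with siRNA1 and 103, 96.9 and 105 with siRNA2. Its groups did not overlap. ACAT2 rose by 0.56 ± 0.06 with siRNA2 and fell by 0.17 with siRNA1; it shares 397 exon bases with TCP1 on the opposite strand, whose mean count of 6972 exceeds its own of 3585, and it is not stated whether strand was used in counting. IDI1, the isomerase that readies the isoprenoid unit for chain building, moved least: 17.0 ± 1.02 in control, 15.4 ± 1.46 with siRNA1 and 19.9 ± 0.622 with siRNA2 (SD, n = 3), a log2 rise of 0.22 ± 0.07 with siRNA2 (adjusted p = 0.01075). That rise was lost without control library 2 (adjusted p = 0.0761) or siRNA2 library 1 (0.0532).

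FDPS and GGPS1 join the units into farnesyl and geranylgeranyl diphosphate, which feed protein prenylation and other branches. Of these products, only farnesyl diphosphate also goes on to sterols. FDPS had 47.1, 46.5 and 52.5 in control, 46.8, 40.7 and 43.8 with siRNA1 and 69.5, 67.2 and 69.1 with siRNA2, with siRNA2 apart from both other groups. FDPS rose by 0.49 ± 0.06 with siRNA2 and fell by 0.16 with siRNA1 (adjusted p = 0.04275). GGPS1 was low, with 52 to 153 counts per library, and its levels were 1.01, 0.902 and 1.23 in control, 1.46, 1.95 and 1.36 with siRNA1 and 1.86, 1.64 and 2.34 with siRNA2. Both siRNAs lay above control and overlapped each other, and GGPS1 rose by 0.60 ± 0.18 and 0.88 ± 0.18, with a difference between the siRNAs of 0.29 ± 0.17 (adjusted p = 0.1395). GGPS1 shares 350 exon bases with TBCE on its own strand and 138 with ARID4B on the other.

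From squalene to lanosterol, all 3 enzymes rose with siRNA2, with a median log2 fold change of 1.262, and with siRNA1 1 of 3 fell and none rose. FDFT1, which joins farnesyl units into squalene, had 21.0 ± 0.559 in control, 18.8 ± 0.362 with siRNA1 and 26.5 ± 0.799 with siRNA2 (SD, n = 3), and its groups did not overlap. It rose by 0.33 ± 0.06 with siRNA2 and fell by 0.16 with siRNA1 (adjusted p = 0.02383). SQLE, the squalene oxidase and a second control point of the pathway, had 7.67, 7.27 and 7.3 in control, 6.37, 7.0 and 6.16 with siRNA1 and 21.2, 19 and 19.9 after siRNA2. The siRNA2 libraries of SQLE were 2.70-fold above control (log2 1.43 ± 0.07, adjusted p = 4.29e-14), and its log2 fold change with siRNA1 was -0.19 ± 0.08 (adjusted p = 0.05237). No siRNA1 library of SQLE reached the control range, and such non-overlap, in either direction, held for 53.8% of all tested genes.

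LSS, the cyclase that closes the rings to give lanosterol, had 20, 20.4 and 21.1 in control, 21, 20 and 21.2 with siRNA1 and 52.3, 48.0 and 47.3 after siRNA2. The siRNA1 libraries were mixed with the controls and those of siRNA2 stood apart from both. LSS rose 2.40-fold with siRNA2 (1.26 ± 0.06), and with siRNA1 its log2 fold change was 0.01 ± 0.06 (adjusted p = 0.8633).

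From lanosterol to cholesterol, all 8 enzymes rose with siRNA2, with log2 fold changes of 0.296 to 2.3548 and a median of 0.975, and in each of them the siRNA2 libraries lay above every control library, as in 30.3% of all tested genes. With siRNA1, 2 of the 8 rose, 3 fell and 3 were not called, with a median of -0.188. CYP51A1, the first demethylase of lanosterol, had 3.83, 3.52 and 3.11 in control, 2.35, 2.56 and 2.56 with siRNA1 and 10.2, 11 and 10.8 after siRNA2. The 3 groups stood in 3 separate ranges, with siRNA1 lowest. CYP51A1 rose by 1.61 ± 0.10 with siRNA2 and fell by 0.48 with siRNA1 (SE 0.11, adjusted p = 0.0007617), and the siRNAs differed by 2.10 ± 0.10 (adjusted p = 3.913e-15).

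MSMO1, the sterol C4 methyl oxidase, lies on chromosome 4 at 165327667 to 165343164. It had 11.1, 9.61 and 11.1 in control, 13.5, 15.4 and 13.2 with siRNA1 and 54.6, 51.7 and 56.4 with siRNA2. Both siRNAs lay above control without overlap, siRNA2 by far. MSMO1 rose 5.12-fold with siRNA2 (2.35 ± 0.08, rank 113 of 15345) and 1.32-fold with siRNA1 (0.40 ± 0.08, adjusted p = 0.0001897). NSDHL, the C4 decarboxylating dehydrogenase that works with it, had 15.3, 16.4 and 18.8 in control, 13.6, 12.1 and 12.5 with siRNA1 and 22.1, 19.7 and 20.2 with siRNA2. NSDHL fell by 0.41 with siRNA1 (SE 0.09) and rose by 0.30 ± 0.09 with siRNA2, without overlap in either comparison. HSD17B7, the ketoreductase of the same complex, was low at 2.47 ± 0.234 in control, 2.06 ± 0.11 with siRNA1 and 5.14 ± 0.23 with siRNA2 (SD, n = 3), and rose by 1.06 ± 0.10 with siRNA2; its log2 fold change with siRNA1 was -0.26 ± 0.11 (adjusted p = 0.05482). A copy, HSD17B7P2, had 33.2 counts on average beside 273 for HSD17B7, and reads could be split between them.

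TM7SF2, a sterol C14 reductase, was the enzyme with the largest rise with siRNA1. Its levels were 2.82, 3.35 and 4.25 in control, 6.01, 6.18 and 6.31 with siRNA1 and 5.27, 5.18 and 5.48 with siRNA2. Both siRNAs exceeded control, and the siRNA1 libraries lay above those of siRNA2. TM7SF2 rose by 0.83 ± 0.12 with siRNA1 and by 0.61 ± 0.12 with siRNA2, and the difference between them was -0.22 ± 0.11 (adjusted p = 0.08785). It is 1 of 2 enzymes, with GGPS1, whose direct comparison between the siRNAs did not pass the test.

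The last steps moved together with siRNA2. EBP, the sterol isomerase, had 19.6 ± 1.44 in control, 18.7 ± 1.55 with siRNA1 and 27.9 ± 3.26 with siRNA2, a log2 rise of 0.51 ± 0.09 with siRNA2. SC5D, the C5 desaturase, had 3.90 ± 0.312, 3.34 ± 0.182 and 7.24 ± 0.406 in the same order, a rise of 0.89 ± 0.08 with siRNA2 and a fall of 0.22 with siRNA1 (SE 0.08, adjusted p = 0.02249). DHCR7, which makes cholesterol from its immediate precursor 7-dehydrocholesterol, had 13.6, 14.9 and 14.0 in control, 12.8, 13.5 and 12 with siRNA1 and 32.1, 28.8 and 30.9 with siRNA2. DHCR7 rose 2.16-fold with siRNA2 (1.11 ± 0.07, adjusted p = 1.025e-12), and its log2 fold change with siRNA1 was -0.15 ± 0.07 (adjusted p = 0.08064). With siRNA1, all 3 libraries of DHCR7 lay below all 3 controls, those of SC5D likewise, and those of EBP overlapped control. Non-overlap of siRNA1 and control, in either direction, held for 53.8% of all tested genes.

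**Figure D2:**
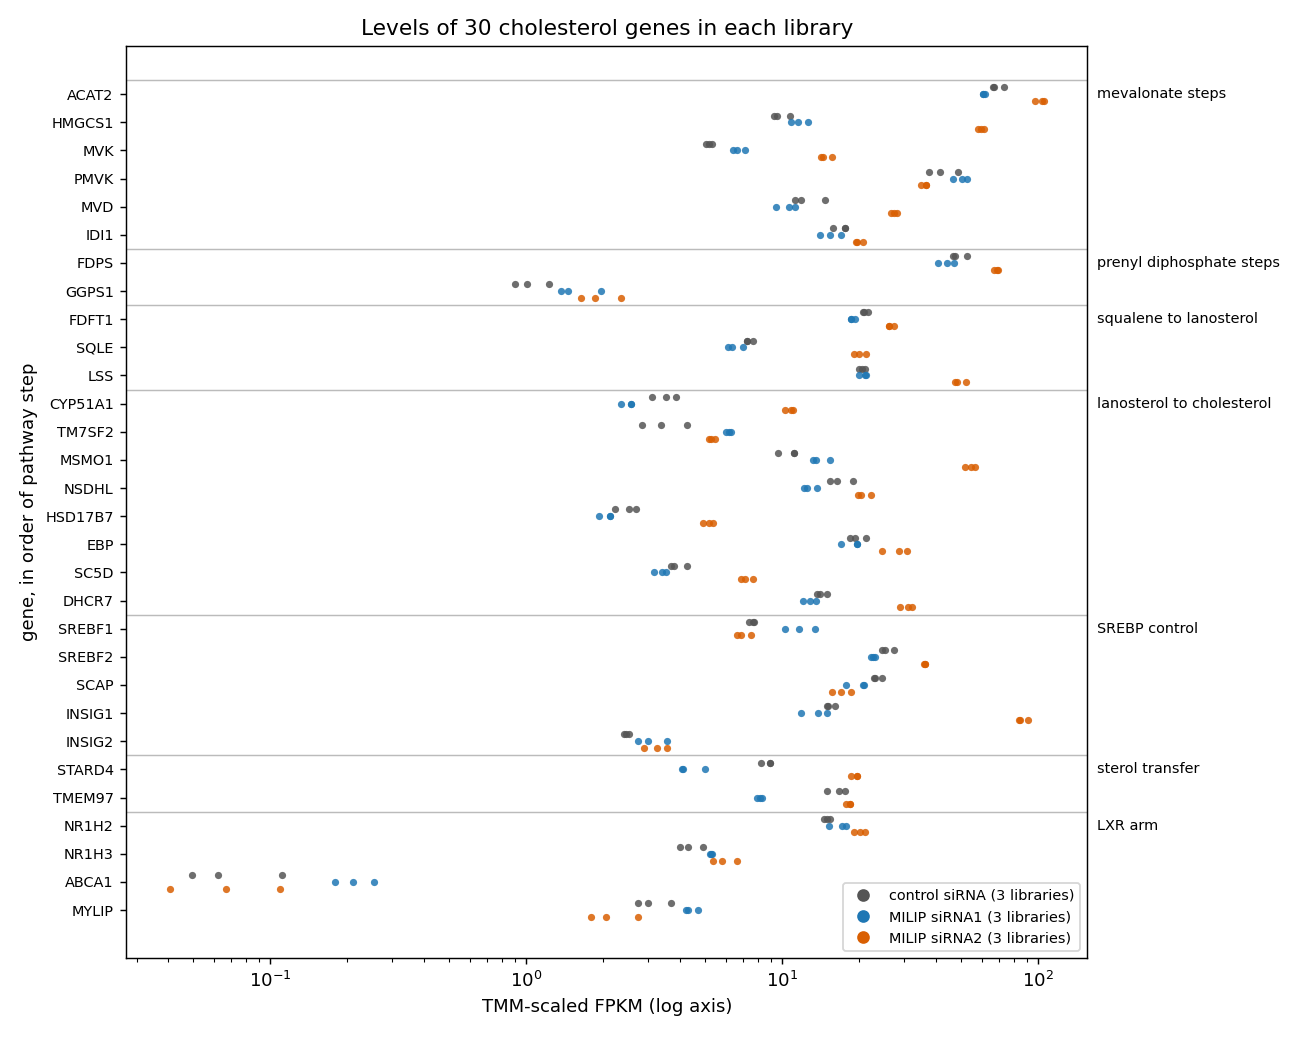
Points are single libraries, with the TMM-scaled FPKM on a logarithmic horizontal axis and the 30 tested genes from top to bottom in order of pathway step (grey control, blue siRNA1, orange siRNA2, 3 libraries each). The orange points stand to the right of the grey ones in every enzyme but PMVK, and the blue points of STARD4 and TMEM97 stand to the left.

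Across the 19 enzymes, 18 rose and 1, PMVK, fell with siRNA2, with a median log2 fold change of 0.891; in all 19 the siRNA2 and control libraries did not overlap, as in 61.8% of all tested genes. With siRNA1, 6 enzymes rose, 7 fell and 6 were not called, with a median of -0.151 and a range of -0.4816 to 0.8264. In the direct comparison, 16 of 19 were higher with siRNA2 than with siRNA1 and 1 was lower, with a median of 1.115. Of all tested genes, 28.4% were higher and 32.0% lower in that comparison. The steps were not raised evenly: log2 fold changes with siRNA2 ran from -0.24 for PMVK and 0.22 for IDI1 to 2.35 for MSMO1 and 2.60 for HMGCS1. The ratio of HMGCS1 to PMVK, both in TMM-scaled FPKM, was 0.237 ± 0.0459 in control, 0.235 ± 0.0335 with siRNA1 and 1.67 ± 0.057 with siRNA2 (SD, n = 3).

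Several of the small siRNA1 calls among the enzymes were lost when 1 library was left out, which also lowers the power of the test. The PMVK call was lost without control library 1 or 2 or siRNA1 library 1 or 3 (adjusted p from 0.08406 to 0.1824). The MVD call was lost without control library 3 (0.08312) or siRNA1 library 2 (0.054), and that of FDFT1 without control library 2 (0.08385) or siRNA1 library 3 (0.07859). FDPS lost its call without control library 3, without siRNA1 library 2 or 3 and without any 1 of the siRNA2 libraries (0.05175 to 0.1742). With 1 siRNA2 library left out, its log2 fold change with siRNA1 was -0.1571 to -0.1564, beside -0.1551 with all libraries. GGPS1 lost it without control library 2 (0.05182) or siRNA1 library 2 (0.07156), and SC5D without control library 1 (0.1369) or siRNA1 library 3 (0.1131). The other siRNA1 calls among the enzymes, of ACAT2, HMGCS1, MVK, CYP51A1, TM7SF2, MSMO1 and NSDHL, passed with each library left out in turn.

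**Figure D3:**
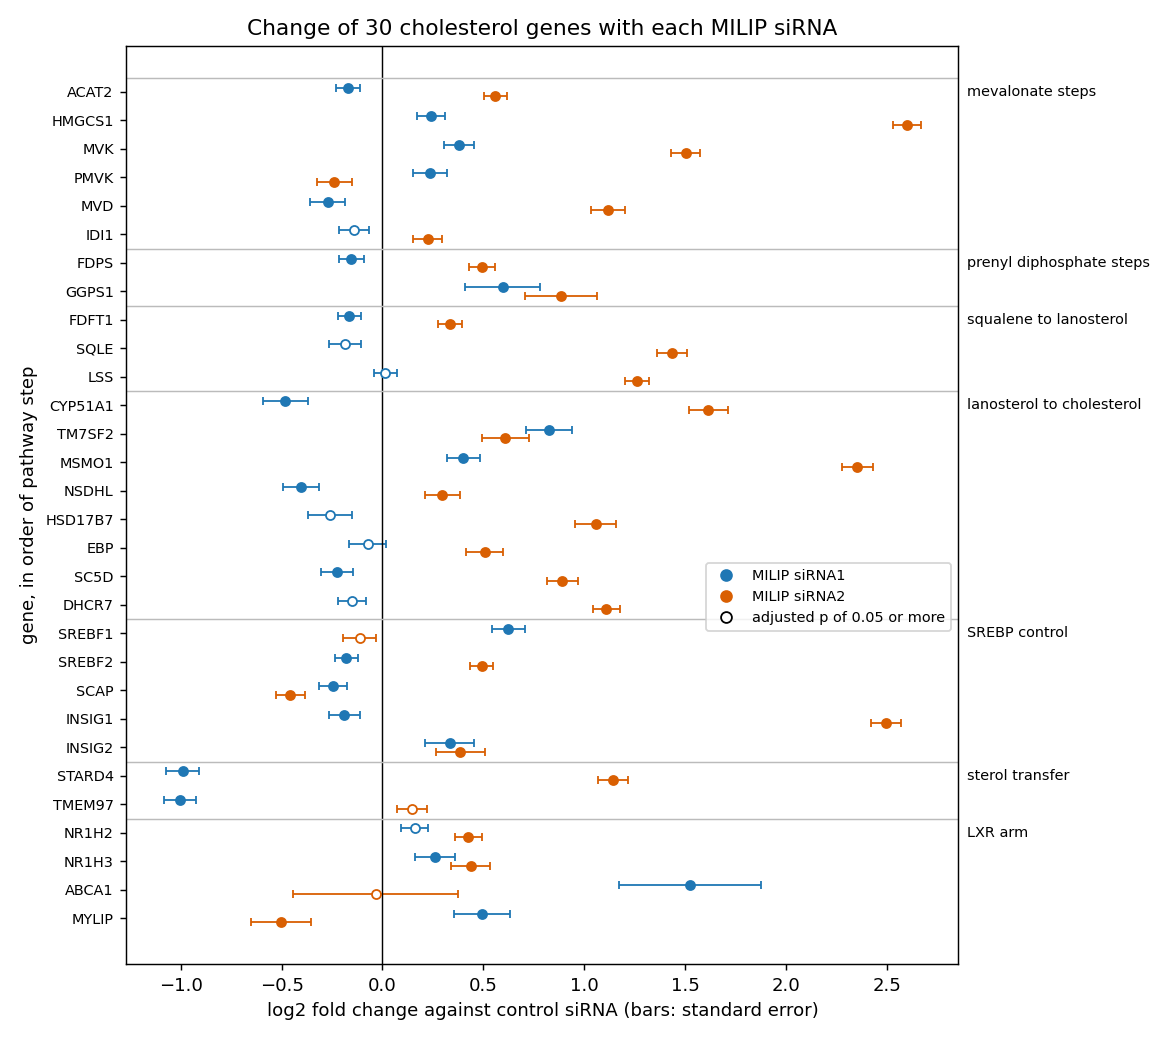
Points are log2 fold changes against control (horizontal axis) for the 30 tested genes in pathway order, blue for siRNA1 and orange for siRNA2, with bars of 1 standard error from edgeR; open points did not pass an adjusted p of 0.05. HMGCS1, INSIG1 and MSMO1 lie farthest right with siRNA2, at 2.60, 2.497 and 2.35, and most blue points lie within 0.5 of 0.

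The 5 SREBP control genes did not move as one: 3 rose and 1 fell with siRNA2, and 2 rose and 3 fell with siRNA1. INSIG1, which retains SCAP in the endoplasmic reticulum and lies on chromosome 7 at 155297776 to 155310235, had 14.9, 15.1 and 16.1 in control, 13.8, 15.0 and 11.8 with siRNA1 and 91.5, 85.1 and 84.3 after siRNA2. The siRNA2 libraries stood far above both other groups, while siRNA1 overlapped control. INSIG1 rose 5.64-fold with siRNA2 (2.497 ± 0.07, adjusted p = 1.31e-18, rank 87 of 15345) and was called lower with siRNA1 (-0.19 ± 0.08, adjusted p = 0.04175), a call lost without control library 2 or 3, siRNA1 library 3 or siRNA2 library 2 or 3 (adjusted p from 0.05331 to 0.3332). INSIG2, its paralog, had 2.41, 2.52 and 2.45 in control, 2.74, 3.55 and 2.99 with siRNA1 and 3.53, 2.89 and 3.24 with siRNA2, so that both siRNAs were a little above control and overlapped each other. INSIG2 rose by 0.33 ± 0.12 and 0.39 ± 0.12, and the latter call was lost without siRNA2 library 1 (adjusted p = 0.0553). The siRNA1 call of INSIG2 was lost without control library 1 (0.06952) or 3 (0.06262) or siRNA1 library 2 (0.154). The ratio of INSIG1 to INSIG2 was 6.26 ± 0.29 in control, 4.4 ± 0.569 with siRNA1 and 27.1 ± 2.01 with siRNA2 (SD, n = 3).

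SREBF2 encodes SREBP2, the factor most closely tied to cholesterol synthesis, and SREBF1 encodes SREBP1, tied more to fatty acids. SREBF2 had 25.1, 27.3 and 24.5 in control, 23.1, 22.6 and 22.1 with siRNA1 and 36.1, 35.9 and 36.0 with siRNA2, in 3 separate ranges. It rose by 0.49 ± 0.06 with siRNA2 and fell by 0.18 with siRNA1 (SE 0.06, adjusted p = 0.01029), the fall being lost without control library 2 (adjusted p = 0.07831). SREBF1 had another pattern: 7.74, 7.43 and 7.68 in control, 11.6, 10.2 and 13.4 with siRNA1 and 6.92, 6.65 and 7.57 with siRNA2. SREBF1 rose 1.54-fold with siRNA1 (0.62 ± 0.08, adjusted p = 5.475e-07), and with siRNA2, which overlapped control, its log2 fold change was -0.11 ± 0.08 (adjusted p = 0.2527). The ratio of SREBF2 to SREBF1 was 3.37 ± 0.268 in control, 1.95 ± 0.278 with siRNA1 and 5.12 ± 0.335 after siRNA2. The counts do not separate the SREBP1a and SREBP1c transcripts of SREBF1.

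SCAP, the escort protein, fell with both siRNAs. Its levels were 23.0, 24.4 and 22.9 in control, 20.8, 17.8 and 20.7 with siRNA1 and 18.5, 17.0 and 15.7 with siRNA2, all below control. SCAP fell by 0.25 with siRNA1 (SE 0.07, adjusted p = 0.005042) and by 0.46 with siRNA2 (SE 0.07, adjusted p = 5.037e-06). The siRNA1 and siRNA2 libraries overlapped, and their difference of -0.21 ± 0.07 was called (adjusted p = 0.01206) but lost without siRNA1 library 1 (0.0986), siRNA1 library 3 (0.0638) or siRNA2 library 3 (0.107).

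**Figure D4:**
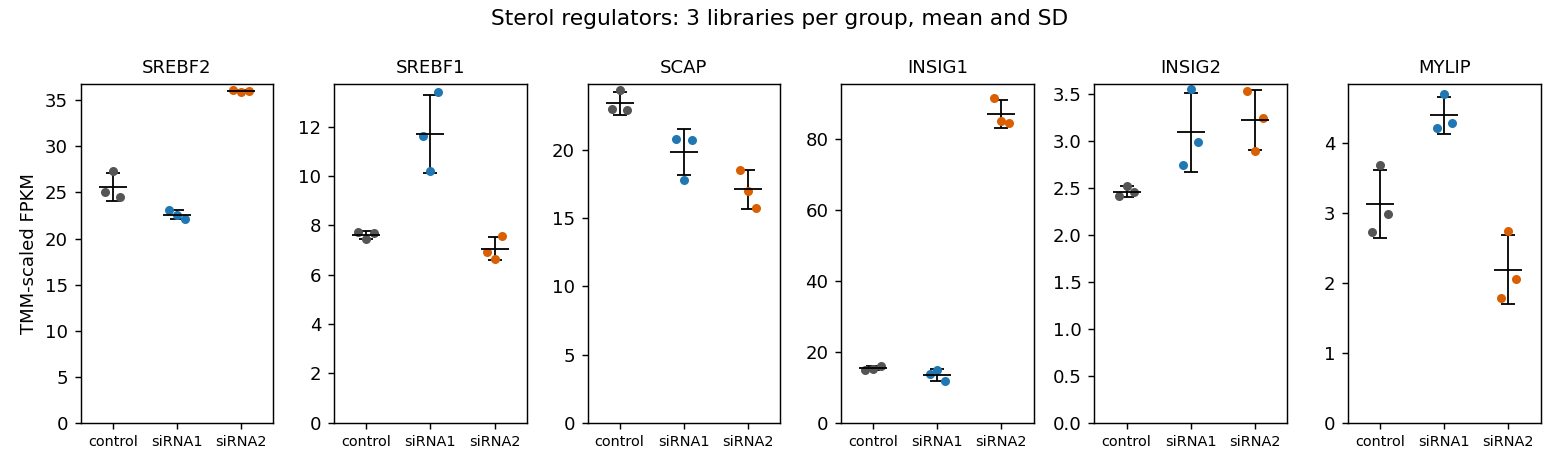
Each panel shows one gene, with TMM-scaled FPKM from 0 on the vertical axis, points for the 3 libraries of control, siRNA1 and siRNA2 and bars for the mean and SD. INSIG1 stands at 84.3 to 91.5 with siRNA2 against 14.9 to 16.1 in control, SREBF1 is high with siRNA1 alone, and SCAP is lower with both siRNAs.

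The 2 sterol-handling genes had the largest falls with siRNA1 among the 30 tested genes. STARD4, a cytosolic carrier of sterol between membranes on chromosome 5 at 111496033 to 111512590, had 8.94, 8.25 and 8.95 in control, 4.07, 4.99 and 4.1 with siRNA1 and 18.6, 19.6 and 19.6 after siRNA2. The 3 groups were widely separated, siRNA1 below and siRNA2 above control. STARD4 fell to 0.503 of control with siRNA1 (-0.99 ± 0.08, adjusted p = 2.57e-10) and rose 2.21-fold with siRNA2 (1.14 ± 0.07, adjusted p = 2.942e-12). TMEM97, the sigma-2 receptor, a membrane protein linked to sterol trafficking, had 16.6, 14.9 and 17.6 in control, 8.17, 7.98 and 8.34 with siRNA1 and 17.7, 18.4 and 18.3 with siRNA2. TMEM97 fell to 0.499 of control with siRNA1 (-1.003 ± 0.08, adjusted p = 1.278e-10), and with siRNA2 its log2 fold change was 0.15 ± 0.07 (adjusted p = 0.09609). TMEM97 shares 361 exon bases with IFT20 on the opposite strand.

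Of the 4 tested genes of the LXR arm, 2 rose and 1 fell with siRNA2, and 3 rose and none fell with siRNA1. NR1H2, encoding LXR beta, had 15.0 ± 0.391 in control, 16.7 ± 1.35 with siRNA1 and 20.1 ± 0.949 with siRNA2 (SD, n = 3), with a rise of 0.43 ± 0.07 with siRNA2 and a log2 fold change of 0.16 ± 0.07 with siRNA1 (adjusted p = 0.0555). NR1H3, encoding LXR alpha, had 4.39 ± 0.457, 5.26 ± 0.0278 and 5.95 ± 0.639 and rose by 0.26 ± 0.10 and 0.44 ± 0.10; 189 of its exon bases are shared with ACP2 on the opposite strand. All libraries of NR1H3 with either siRNA lay above control, and its siRNA1 call was lost without control library 1 or 2 or siRNA1 library 1 or 3 (adjusted p from 0.06238 to 0.156).

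ABCA1, the exporter that loads cholesterol onto lipoproteins, had 9 to 46 counts per library, and its levels were 0.0493, 0.111 and 0.0626 in control, 0.253, 0.179 and 0.21 with siRNA1 and 0.109, 0.0406 and 0.0672 with siRNA2. Only the siRNA1 libraries stood apart. ABCA1 rose 2.88-fold with siRNA1 (1.52 ± 0.35, adjusted p = 0.0008174), and with siRNA2 its log2 fold change was -0.03 ± 0.41 (adjusted p = 0.9513), so that no change was detectable at this depth. ABCG1, the related exporter, had 0 to 3 counts per library and was not tested; a count of 0 allows up to 3 counts, or 0.152 to 0.196 per 1e+06 counts, and covers counting error only. MYLIP, the ubiquitin ligase that removes lipoprotein receptors and is switched on by LXR, had 2.73, 3.68 and 2.98 in control, 4.21, 4.7 and 4.29 with siRNA1 and 1.79, 2.74 and 2.05 after siRNA2. The siRNA1 libraries lay above all others and those of siRNA2 touched the control range. MYLIP rose by 0.49 ± 0.14 with siRNA1 and fell by 0.50 with siRNA2 (SE 0.15, adjusted p = 0.005587), a fall that was lost without control library 2 (adjusted p = 0.0562) or siRNA2 library 1 (0.0517).

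The 2 siRNAs were also compared on short words in 3′ untranslated regions, because an siRNA can lower transcripts that match its seed; the siRNA sequences are not in the labels, so whether these words match the seeds was not tested. Among 12586 tested genes with an annotated region in GENCODE v29, 16261 words of 7 bases, each held by at least 50 genes, were ranked. The ranking used a t statistic of the fold changes of genes with and without the word, which favours common words. The most negative t with siRNA1 was that of AATTCCA (-22.55), present in 17.9% of genes and shifted by -0.348 on the log2 scale. With siRNA2 it was that of GACCCTA (-15.3), present in 5.79% and shifted by -0.393. Both words also occur in the MILIP transcript, and both were picked on these fold changes. What share of the 16261 words occurs in that transcript was not determined, so this occurrence cannot be weighed. With siRNA1 the word ranked 2 (t of -19.72) also occurs there, and those ranked 3 (-14.97) and 4 (-14.72) do not. The word ranked 4 is held by 50.1% of genes. With siRNA2 the words ranked 2, 3 and 4 do not occur there. Below, the siRNA1 word and the siRNA2 word are those ranked 1. Of the 31 genes, STARD4 and ABCA1 hold the siRNA1 word and IDI1 and SREBF1 the siRNA2 word, each once. The sites of ABCA1 and SREBF1 are not shown. The 2 sites shown here are those of STARD4, which fell with siRNA1, and of IDI1, which rose by 0.22 ± 0.07 with siRNA2. They are read 5′ to 3′ on the minus strand with the word in capitals (GRCh38, chr5:111498425-111498453 and chr10:1040634-1040662).
STARD4: taggatggtgaAATTCCAaaggtgcctaa
IDI1: taaatgatatgGACCCTAatttgtatcat
STARD4 fell with siRNA1 and ABCA1 rose with it, and TMEM97, which lacks the word, was at 0.499 of control beside 0.503 for STARD4. Of the 12 genes that fell with siRNA1, none other than STARD4 holds the siRNA1 word. With siRNA2, IDI1 rose and SREBF1 was not called. The part of these words in the changes was not tested.

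Other genes of the pathway were taken from 5 lists of related steps. Their counts are to be read beside the shares of all tested genes. These were 27.2% higher and 28.9% lower with siRNA2, and 25.1% higher and 25.3% lower with siRNA1. Of 6 further genes of sterol synthesis, 4 rose and 1 fell with siRNA2 and none rose and 3 fell with siRNA1. ERG28, a scaffold of the C4 demethylation complex, had 11.1, 9.96 and 10.7 in control, 9.01, 9.95 and 8.52 with siRNA1 and 21.5, 19.8 and 19.6 with siRNA2, a log2 rise of 0.94 ± 0.08 with siRNA2. FAXDC2, a relative of the sterol oxidases, was low at 0.125, 0.172 and 0.237 in control and reached 0.848, 0.74 and 0.857 with siRNA2 (2.18 ± 0.23). ACAT1, the mitochondrial thiolase, which shares its reaction with ACAT2 but serves ketone and isoleucine metabolism, fell with siRNA2 by 0.91 (SE 0.08), from 11.1, 11.2 and 12.5 to 6.45, 5.99 and 6.03.

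The 14 genes of the branches that draw on farnesyl and geranylgeranyl diphosphate did not rise as a group with siRNA2. Of these, 3 rose and 4 fell (21.4% and 28.6%), near the 27.2% and 28.9% of all tested genes. Their median log2 fold change was -0.002. PDSS1, which builds the tail of coenzyme Q, was at 8.35 to 9.45 with siRNA2 against 18.7 to 19.2 in control (-1.09 ± 0.08). TRIT1, which adds isopentenyl groups to transfer RNA, fell by 0.59 with siRNA2, and RCE1, a protease of prenylated proteins, rose by 0.63 ± 0.08 with siRNA1 and by 0.55 ± 0.08 with siRNA2.

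Of 14 genes that process or degrade SREBP and sterol pathway enzymes, 8 rose and 2 fell with siRNA2 and 4 rose and 6 fell with siRNA1. PAQR3, a Golgi protein that anchors SCAP, had 2.94, 2.52 and 2.56 in control and 0.643, 0.72 and 0.761 with siRNA1 (-1.91 ± 0.10), and 2.48, 2.52 and 2.45 with siRNA2 (-0.11 ± 0.09, adjusted p = 0.3029). FBXW7 and GSK3B, which mark SREBP for breakdown, rose with siRNA2 by 0.62 ± 0.11 and 0.57 ± 0.08, and ERLIN2, which takes part in sterol-driven degradation, by 0.54 ± 0.07. Of 23 tested genes of sterol uptake, storage and transport, 17 rose and 2 fell with siRNA2, with a median log2 fold change of 0.55. Of all tested genes, 27.2% rose and 28.9% fell with siRNA2. With siRNA1, 7 of the 23 rose and 7 fell (30.4% each), near the 25.1% and 25.3% of all tested genes. CYP27A1, which makes 27-hydroxycholesterol, an LXR ligand, had 1.55, 2.19 and 1.56 in control, 2.72, 2.64 and 2.62 with siRNA1 and 8.56, 6.76 and 8.1 with siRNA2, and rose by 0.59 ± 0.15 and 2.15 ± 0.13. OSBP, which carries sterol to the Golgi, fell by 1.70 with siRNA1 (16.5, 16 and 14.2 in control, 4.76, 4.91 and 4.69 with siRNA1) and rose by 0.39 ± 0.07 with siRNA2. Of 12 tested genes of the 5 related lists that hold the siRNA1 word, 7 fell with siRNA1, PAQR3 and OSBP among them. Another 2 rose (PGGT1B and MBTPS2, named after their values were seen) and 3 were not called, FBXW7 among them. The share of all tested genes that fell with siRNA1 was 25.3%. Of 5 tested genes of these lists that hold the siRNA2 word, 2 rose, 1 fell and 2 were not called with siRNA2. Each word ranked first because genes holding it tended to fall, so these counts are no separate test of the words.

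Among 6 tested partners and targets of LXR, 4 rose and 1 fell with siRNA2 and 3 rose and 2 fell with siRNA1. RXRA, the dimer partner of LXR, had 13.4, 14.1 and 13.5 in control, 15.7, 15.1 and 16.7 with siRNA1 and 26.7, 24.8 and 24.8 with siRNA2, and rose by 0.21 ± 0.06 and 0.89 ± 0.06. LPCAT3, a phospholipid-remodelling target of LXR, rose with siRNA1 by 0.56 ± 0.12, and with siRNA2 its log2 fold change was -0.0029 ± 0.13 (adjusted p = 0.9865). NCOA1, a coactivator of nuclear receptors, rose by 0.37 ± 0.08 with siRNA1 and by 0.44 ± 0.08 with siRNA2.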

How the data were processed

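The deposited table holds a raw count and an FPKM value per gene and library, made by the authors; DESeq, HTSeq 0.6.1, HISAT2 2.0.1 and Trimmomatic 0.30 are listed, with no role, per the submitters' processing notes. The deposited FPKM equals the count over exonic size and library total. The notes name hg19, but the table's coordinates are those of GRCh38. Whether strand was used in counting is not stated in the labels. Genes passing filterByExpr (minimum count 10, minimum total 15) were fitted with edgeR 4.0.16 in R 4.3.3 (TMM, quasi-likelihood, 1 fit of 3 groups, two-sided, Benjamini-Hochberg over 15345 genes); the test across genes was checked on simulated data. Levels divide TMM-scaled counts by the deposited exonic sizes. A gene is called at an adjusted p below 0.05. All 31 listed genes are described, and of each related list up to 4 with the largest fold change among those called with either siRNA; some genes that this rule picks are not reported here. The members and lists were chosen with earlier results of these data known. Promoter windows came from RefSeq and 3′ untranslated regions from GENCODE v29. Alternatives were DESeq2 1.42.0, other scalings and filters, limma 3.58.1 on log2(FPKM + 1) or log2(FPKM + 0.1), a replicate block, the groups compared alone, each library left out and a fold minimum. Sequences were searched and figures drawn in Python 3.11.15 (matplotlib 3.10.9, pandas 2.3.3, numpy 2.4.6). The 3 groups stood apart on the first 2 principal components, and no 2 libraries were identical.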

Additional observations from a re-analysis of the deposited data

Results flagged for a closer look

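A gene is listed here if the 2 siRNAs were called in opposite directions against the shared control libraries and their direct comparison was also called (edgeR's quasi-likelihood test). The direct comparison is part of this rule and so gives no further support. The rule picked 12 genes. These were 10 genes lower with siRNA1 and higher with siRNA2, a pattern of 5.59% of all 15345 tested genes, and 2 with the reverse, a pattern of 4.34%. Both shares over all genes rest on the calls against control alone. The largest of these differences, in log2 fold change of siRNA2 against siRNA1, were those of INSIG1 (2.69), STARD4 (2.13), CYP51A1 (2.10), MVD (1.39) and SC5D (1.12). ACAT2 (0.73), NSDHL (0.70), SREBF2 (0.67), FDPS (0.65) and FDFT1 (0.50) also differed upwards. MYLIP (-0.999) and PMVK (-0.47) differed downwards. Of the calls behind them, those with siRNA1 for PMVK, MVD, FDPS, FDFT1, SC5D, INSIG1 and SREBF2 were lost when some library was left out or under another setting, and so were those with siRNA2 for PMVK (adjusted p = 0.2065 without control library 3, 0.0807 without siRNA2 library 3 and 0.0513 without the low-count filter) and MYLIP (0.0562 without control library 2 and 0.0517 without siRNA2 library 1).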

How the results depend on the processing

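No call among the 31 genes changed direction under any alternative run. With siRNA2, 23 of 27 calls passed the test under all 9 libraries left out in turn and 9 other settings, as did 24 of 26 in the direct comparison and 12 of 23 with siRNA1. ABCA1 kept both of its calls wherever it was tested, but lies below the minimum mean FPKM of 1 and had no test there. SCAP lost its call in the direct comparison, and with siRNA1 PMVK, MVD, FDPS, GGPS1, FDFT1, SC5D, SREBF2, INSIG1, INSIG2 and NR1H3 lost the call somewhere. Leaving out 1 library gave 22 to 25 genes higher and 2 to 3 lower with siRNA2, 8 to 11 higher and 8 to 13 lower with siRNA1, and 21 to 22 higher and 4 to 5 lower between the siRNAs. A minimum fold change of 1.5 left, with siRNA1, 4 genes higher and 2 lower (1761 and 1647 over all genes), with siRNA2, 14 higher and 0 lower (2030 and 2071), and between the siRNAs 17 higher and 3 lower (2341 higher and 2521 lower over all genes); the stricter rule itself lowers these counts. The replicate block gave 24 higher and 3 lower with siRNA2 and 11 and 12 with siRNA1, and changed no call; same-numbered libraries correlated from -0.284 to 0.283, so the numbers show no pairing. Depth limits ABCA1, GGPS1 and ABCG1 most.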
